A study of Mus musculus with 6 samples.

Results

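Saa3, Defa30 and Spink1 encode secreted proteins of mucosal defence, namely an acute-phase protein, an alpha-defensin and a protease inhibitor. They are 3 of the 68 genes in the deposited table of baseline colon RNA-seq, and they were selected by gene symbol with their genotype differences already known. The table covers 3 WT mice and 3 Pum2-/- mice, with 1 library per mouse from tissue labelled colon, and the study describes these mice as being under basal conditions. Pum2-/- mice lack the RNA-binding protein Pum2 in all tissues, and the line was kept on the FVB background. The study's methods describe age-matched males and cohoused or randomly caged littermates for its colitis experiment, in which untreated mice served as controls, and the labels give no sex, age, litter or cage for the sequenced mice. The authors deposited a normalized expression value for each gene and library, and the method of normalization is not given in the sources used here. All 69 rows of the table (2 of them with the same gene identifier) carry an adjusted p-value of the authors under 0.05. A difference between the genotypes was therefore a condition for entering the table, and the values below describe the 3 genes with no test. Normalized expression of Pum2 itself was 17.8, 16.1 and 16.5 in the WT libraries and 2.94, 2.68 and 1.45 in the Pum2-/- libraries, so the targeted gene matched the labels.

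The colon lining holds microbes back with a layer of mucus and with secreted proteins. Serum amyloid A proteins are lipid-binding acute-phase proteins, and in mice Saa3 is the member made mainly outside the liver, by epithelium, macrophages and fat, where bacteria and inflammatory cytokines induce it. Alpha-defensins are small cationic peptides that damage bacterial membranes. In mice they are the product of Paneth cells in the crypts of the small intestine, and the normal mouse colon has few or no such cells. Spink1, named Spink3 in older mouse work, is a Kazal-type inhibitor that blocks trypsin and is best known from the acinar cells of the pancreas, with further expression in the gut epithelium.

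The start regions of Saa3 and Defa30 are shown first, because regulators known for these gene classes bind there. RefSeq windows on build GRCm38.p6 run from 250 bases before to 50 bases after the annotated start, come from the C57BL/6J reference and not from the FVB mice, and were found for 2 of the 3 genes and for 37 of the 68 listed genes. In the Saa3 window, chr7:46715627-46715926 on the minus strand, capitals mark matches to TTNNGNAA, a loose form of the site of C/EBP factors, which are known activators of acute-phase genes. In the Defa30 window, chr8:21134400-21134699 on the plus strand, capitals mark a TATA box (TATAAA) and matches to CTTTGT or CTTTGA, cores of sites for the TCF factors that act in Wnt signalling in Paneth cells. Both strands were searched.
Saa3: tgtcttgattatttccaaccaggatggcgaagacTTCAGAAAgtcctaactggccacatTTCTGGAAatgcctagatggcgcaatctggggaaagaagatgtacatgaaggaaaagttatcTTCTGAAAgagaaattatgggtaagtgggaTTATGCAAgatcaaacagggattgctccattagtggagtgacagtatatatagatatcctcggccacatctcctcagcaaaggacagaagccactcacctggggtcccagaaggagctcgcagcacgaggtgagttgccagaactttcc
Defa30: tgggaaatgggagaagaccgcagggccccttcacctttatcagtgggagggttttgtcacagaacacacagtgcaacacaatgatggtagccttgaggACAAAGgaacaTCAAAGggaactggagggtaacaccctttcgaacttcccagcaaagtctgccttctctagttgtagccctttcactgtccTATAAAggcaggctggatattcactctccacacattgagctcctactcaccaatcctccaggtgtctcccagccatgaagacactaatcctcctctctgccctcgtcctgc

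The Saa3 window held 4 matches to TTNNGNAA, starting at positions -216, -191, -129 and -99 from the annotated start, and 40.7% of 32544 windows of the same length held at least 1 match. It also held 1 match to the core of the interferon-stimulated response element (GAAA repeated after 2 free bases) at -125, which overlaps the third C/EBP match and which occurs in 3.45% of windows. A form of the NF-kB site (GGG and TTTCC with 2 free bases between) and TTCNNNGAA, a STAT site, had no match in either window, against 1.61% and 8.33% of all windows. The Defa30 window held TATAAA at -61, a match found in 13.6% of windows, and a single match each to CTTTGT at -152 and to CTTTGA at -141, which were found in 18.7% and 16.0% of windows. These are matches of letters, not measured binding sites.

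Saa3 was the member with higher values in Pum2-/- colon. Its gene (ENSMUSG00000040026) spans 46711998 to 46715700 on chromosome 7 in the GENCODE M21 annotation of GRCm38, on the minus strand, and its main coding transcript has 4 exons and 555 bases. Normalized expression was 0 in WT replicate 1, 0.00310 in WT replicate 2 and 4.72 in WT replicate 3. In the Pum2-/- libraries it was 12.7, 13.3 and 27.1. Every Pum2-/- mouse was thus above every WT mouse, and WT replicates 1 and 2 were at or next to 0. The closest values of the genotypes, in Pum2-/- replicate 1 and WT replicate 3, were 2.69-fold apart, and the Pum2-/- libraries themselves spanned 2.14-fold. Mean expression was 17.7 ± 8.18 (SD, n = 3) without Pum2, against 1.57 ± 2.72 (SD, n = 3) for WT. The difference of the mean log2(value + 1), Pum2-/- minus WT, was 3.30 with a standard error of 0.90. On this scale it was rank 4 of the 34 listed genes that were higher in Pum2-/- mice. Because WT values were near 0, the size rested on the pseudocount, and it was 5.51 with 0.1 and 1.24 with 10.

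Defa30 and Spink1 moved the other way. Defa30 (ENSMUSG00000074444, chromosome 8, 21134642 to 21135598, plus strand) has 2 exons and a transcript of 398 bases. Normalized expression was 13.0, 48.4 and 34.0 in the WT libraries. In the Pum2-/- libraries it was 6.89, 0 and 0.134. The lowest WT mouse lay 1.88-fold above the highest Pum2-/- mouse, while the WT mice alone spanned 3.73-fold. Among the Pum2-/- mice, replicate 1 alone had a value clearly above 0. Mean expression was 2.34 ± 3.94 (SD, n = 3) without Pum2, against 31.8 ± 17.8 (SD, n = 3) for WT, and the difference of the mean log2(value + 1) was -3.80 with a standard error of 1.11. Among the 34 listed genes lower in Pum2-/- mice it had rank 6 on this scale, and the difference was -5.67 with a pseudocount of 0.1 and -1.70 with 10.

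Spink1 (ENSMUSG00000024503, chromosome 18, 43728082 to 43737557, minus strand) has 4 exons and a transcript of 729 bases. Normalized expression was 606, 1161 and 731 in the WT libraries. It was 367, 170 and 181 in the Pum2-/- libraries. Here every library had a high value, so the difference is one of level and not of presence. The closest values, in WT replicate 1 and Pum2-/- replicate 1, were 1.65-fold apart, less than the 1.92-fold span within WT and the 2.16-fold span within Pum2-/- mice. Mean expression was 239 ± 110 (SD, n = 3) without Pum2, against 833 ± 291 (SD, n = 3) for WT, a 3.48-fold lower mean. The difference of the mean log2(value + 1) was -1.83 with a standard error of 0.45, which was rank 33 of the 34 lower genes and so among the smaller differences of the lower genes on this scale.

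**Figure D1:**
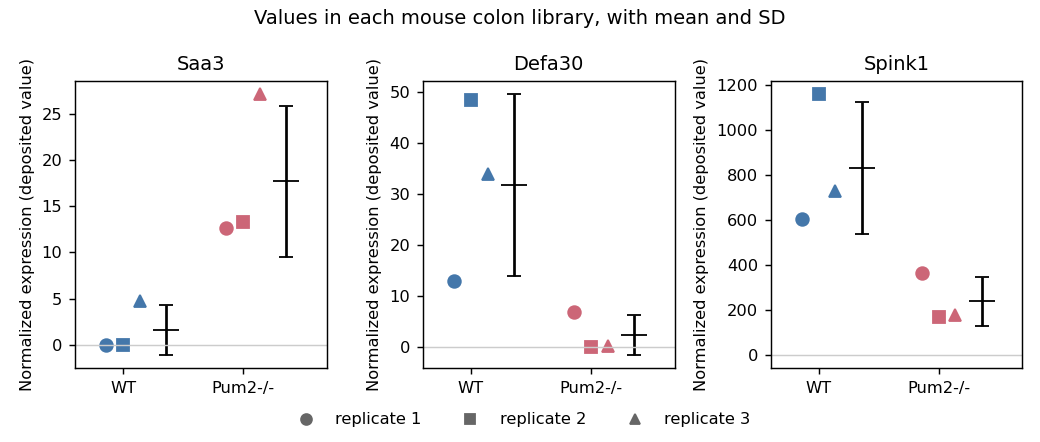
Deposited normalized expression (vertical axes, linear, a separate scale per gene) of Saa3, Defa30 and Spink1 in 3 WT (blue) and 3 Pum2-/- (red) colon libraries, with symbols for replicate numbers and black bars for the mean and SD. Saa3 runs from 12.7 to 27.1 in Pum2-/- mice above a highest WT value of 4.72, while for Defa30 and Spink1 all red points lie below all blue points.

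The genotypes did not overlap in 3 of the 3 genes, with 1 higher and 2 lower in Pum2-/- mice. In the table as a whole 86.8% of the 68 genes showed no overlap, 44.1% with Pum2-/- higher and 42.6% with Pum2-/- lower. These shares are of 30 higher and 29 lower genes, and scaling the libraries to a common median of the listed genes gave 19 and 33. Separation of the genotypes is thus a property of the table, through the selection of its genes, and nothing particular to these 3 can be read from it. The median difference on the log2(value + 1) scale was 2.07 over the 34 higher genes and -2.69 over the 34 lower genes. On this scale Saa3 and Defa30 lay beyond these medians and Spink1 did not reach them. The order of the members depended on the pseudocount, since with 10 in place of 1 the difference of Spink1, at -1.79, was larger in size than that of Defa30, at -1.70, and that of Saa3, at 1.24. In whole-tissue RNA, fewer cells of a type and less RNA per cell cannot be told apart.

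**Figure D2:**
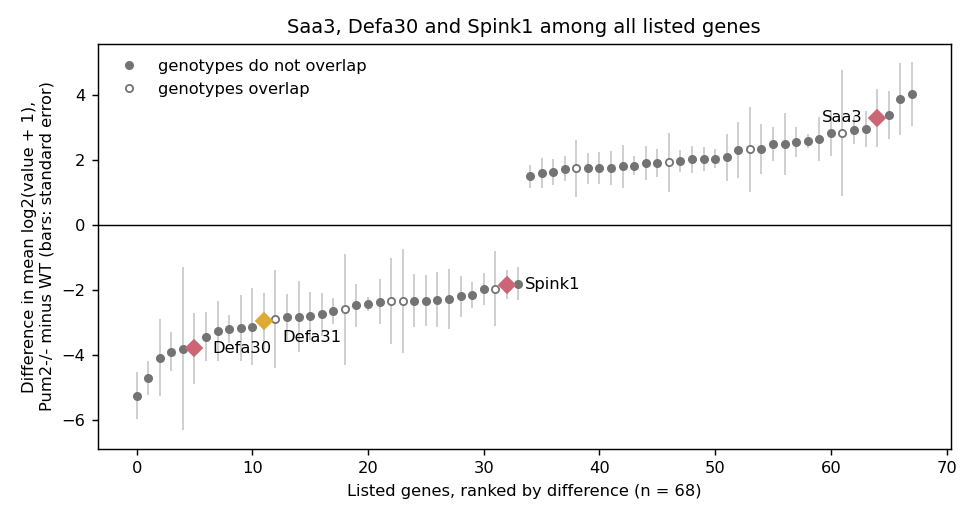
Difference in mean log2(value + 1), Pum2-/- minus WT, of all 68 listed genes ranked from lowest to highest (horizontal axis), with standard errors as bars and open circles for genes whose genotypes overlap. Diamonds mark Saa3 at 3.30, Defa30 at -3.80, Spink1 at -1.83 and the related defensin gene Defa31 at -2.97, with 34 genes on either side of 0.

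Defa30 was accompanied by a second alpha-defensin. Of 22 protein-coding alpha-defensin genes on chromosome 8 of GENCODE M21, which span 710 kb, 2 are in the table, Defa30 and Defa31 (ENSMUSG00000074442, 21191614 to 21192549). Defa31 begins 56.0 kb beyond the end of Defa30. Normalized expression of Defa31 was 6.46, 22.2 and 13.8 in the WT libraries. It was 3.94, 0 and 0.0816 in the Pum2-/- libraries. Both genes were therefore highest in WT replicate 2 and lowest in Pum2-/- replicate 2. The ratio of Defa30 to Defa31 was 2.01, 2.18 and 2.47 in the WT libraries, and 1.75 in Pum2-/- replicate 1.

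The coding sequences of the pair are nearly alike, which bears on how far reads can be assigned to either gene. They are shown without the stop codon as the GENCODE transcripts of GRCm38 give them, with the differing bases in capitals.
Defa30: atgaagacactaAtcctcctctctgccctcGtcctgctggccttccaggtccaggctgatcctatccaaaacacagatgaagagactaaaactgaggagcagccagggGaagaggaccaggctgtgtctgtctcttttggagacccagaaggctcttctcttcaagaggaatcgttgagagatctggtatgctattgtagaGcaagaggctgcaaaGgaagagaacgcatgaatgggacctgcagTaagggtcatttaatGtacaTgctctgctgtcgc
Defa31: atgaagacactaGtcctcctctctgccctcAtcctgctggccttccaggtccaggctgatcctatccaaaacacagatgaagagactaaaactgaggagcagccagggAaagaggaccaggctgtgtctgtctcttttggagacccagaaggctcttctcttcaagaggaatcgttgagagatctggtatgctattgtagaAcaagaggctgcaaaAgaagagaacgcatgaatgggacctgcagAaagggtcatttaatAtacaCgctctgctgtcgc

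The coding sequences differ at 8 of 279 bases, an identity of 97.1%. Among all stretches of 50 bases in the Defa30 transcript, 52.4% also occur in a transcript of another gene, which was the case in 14 genes. With stretches of 100 bases the share was 0.334%. For Defa31 the share was 100% at both lengths, because its annotated transcript lies wholly within that of Defa23. Values of Defa31 cannot be told apart from Defa23 by sequence. The read length and the treatment of reads that match several genes are not given in the sources used here, so the level of each defensin gene is uncertain and their values may share reads. Saa3 and Spink1 were not affected in this way: 1.78% of the Saa3 stretches of 50 bases occur elsewhere, in Saa1, and 0% of those of Spink1 do, with 0% for both at 100 bases. When the values of Defa30 and Defa31 were summed in each library, the difference of the mean log2(value + 1) was -4.09.

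**Figure D3:**
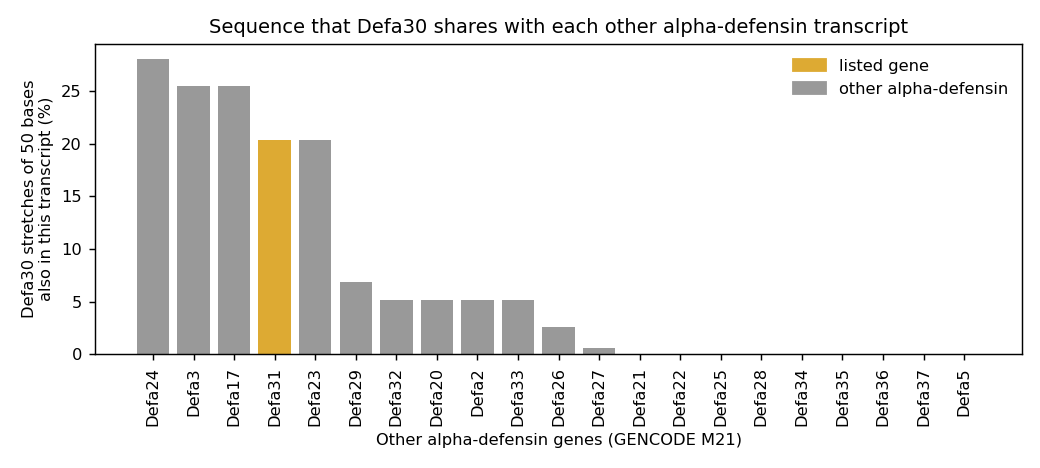
Share of the 50-base stretches of the Defa30 transcript that also occur in each of 21 other alpha-defensin transcripts of GENCODE M21, in percent, with the listed gene Defa31 in yellow. The share is highest for Defa24 at 28.1%, is 20.3% for Defa31, and is above 0 in 12 of the 21 genes.

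The values close to 0 followed a pattern of their own. In Pum2-/- replicate 3, 15 listed genes had values above 0 and under 0.5, Defa30 and Defa31 among them. Ranked by that value, these genes stood in the same order as by the sum of their values in Pum2-/- replicates 1 and 2, in 101 of 101 gene pairs with unequal sums. The value in replicate 3 was between 1.63% and 2.39% of that sum, and 1.94% for Defa30. Among these 15 genes, those with identical values in replicates 1 and 2 also had identical values in replicate 3, as for Cyp2f2, Ighv11-2 and Ighv1-33 at 2.95, 0 and 0.0626. The value of 0.134 for Defa30 in this library thus moved with the values of the other Pum2-/- libraries, and is not read here as expression above 0. The SD and standard error given for Defa30 still count it as a separate measurement. Whether larger values also depend on other libraries was not tested. The value of 0.00310 for Saa3 in WT replicate 2 is 1 of 2 such values in that library. Setting all values under 0.5 to 0 left the differences at 3.30 for Saa3, -3.86 for Defa30 and -1.83 for Spink1.

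**Figure D4:**
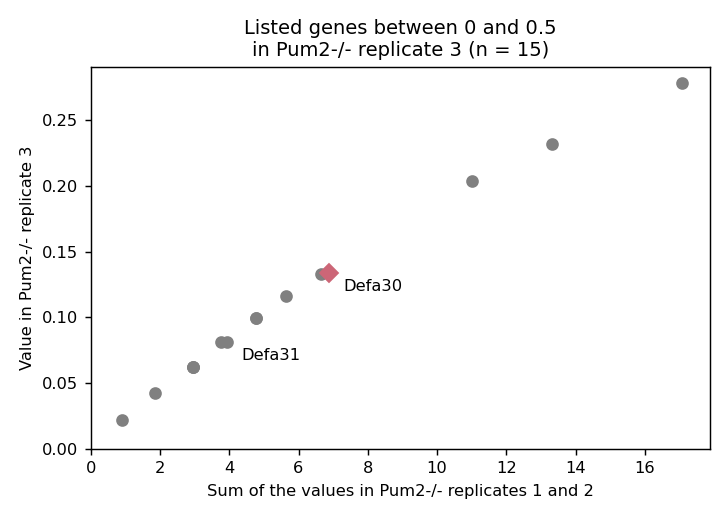
Value in Pum2-/- replicate 3 (vertical axis) against the sum of the values in Pum2-/- replicates 1 and 2 (horizontal axis), both in normalized expression, for the 15 listed genes between 0 and 0.5 in replicate 3, some of which coincide. The points rise along 1 curve from 0.0218 to 0.278, with Defa30 at 0.134.

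Defa30 and Spink1 ordered the 6 libraries identically. From high to low the order was WT replicate 2, WT replicate 3, WT replicate 1, Pum2-/- replicate 1, Pum2-/- replicate 3 and Pum2-/- replicate 2. Of the 30 lower genes with 6 distinct values, 3 had this order, Defa30, Defa31 and Spink1, and the values of the defensins may share reads. For both defensins the place of Pum2-/- replicate 3 rests on the value close to 0 described above. WT replicate 2 was the highest library in 16 of the 34 lower genes, and replicate 1 was the highest Pum2-/- library in 21 of them. Saa3 ordered the libraries from Pum2-/- replicate 3 through replicates 2 and 1 to WT replicates 3, 2 and 1, an order shared with Gzma, a granule protease of cytotoxic lymphocytes, and Fpr1, a receptor of phagocytes for bacterial formyl peptides. The place of WT replicate 2 above WT replicate 1 for Saa3 rests on 0.00310 against 0. Pum2-/- replicate 3 was the highest library in 16 of the 34 higher genes.

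Closeness of profile was measured as the root mean square difference over the 6 libraries in log2(value + 1) after subtraction of each gene's mean. The listed genes were selected for a genotype difference, so closeness reflects in part a difference of like direction and size. Shared regulation was not tested. Among the 67 other genes, those closest to Saa3 were Gzmb, a granule protease of cytotoxic lymphocytes (0.535), Ccl5, a chemokine that attracts T cells and monocytes (0.598), and Ido1, an interferon-induced enzyme that degrades tryptophan (0.598). Those closest to Defa30 were Defa31 (0.479), Nxpe5 (0.543) and Cyp2f2, a cytochrome P450 enzyme (0.737). Those closest to Spink1 were the kappa light chain variable gene Igkv9-124 (0.258), Clca4a, of a family of secreted proteins of the gut epithelium (0.348), and Gal3st2c, a galactose sulfotransferase (0.510). On this scale Spink1 itself stood at rank 16 of closeness to Defa30, at 1.20. The choice of scale decided part of these names. With a pseudocount of 0.1, Ido1 alone was kept for Saa3, Defa31 and Cyp2f2 for Defa30, and Igkv9-124 and Clca4a for Spink1, where Pum2 took the place of Gal3st2c. With a pseudocount of 10, of the 3 closest genes none was kept for Saa3, Defa31 alone was kept for Defa30 and Igkv9-124 alone for Spink1. At that setting Spink1 was the closest gene to Defa30, and Defa30 was among the 3 closest to Spink1. Scaling the libraries to a common median of the listed genes kept Gzmb and Ido1 for Saa3, all 3 for Defa30, and Igkv9-124 and Clca4a for Spink1.

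**Figure D5:**
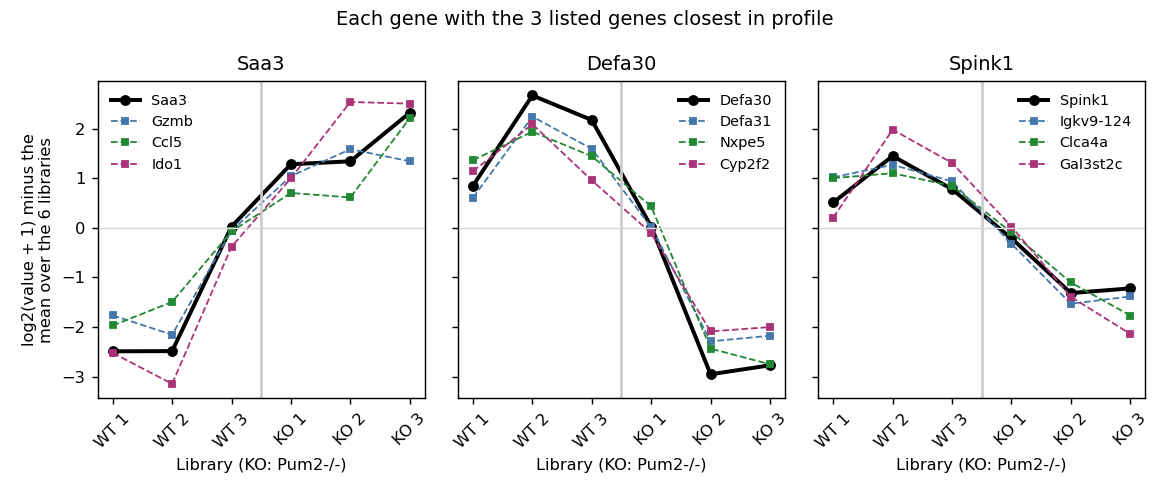
Profiles of Saa3, Defa30 and Spink1 (black) and of the 3 listed genes closest to each (dashed), as log2(value + 1) minus the gene's mean, over the 3 WT and 3 Pum2-/- (KO) libraries; lines only join points of a gene. Saa3 and its closest genes rise from WT to Pum2-/- libraries, and the other 2 panels fall.

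Other genes of the same classes were looked for by list. Of 16 acute-phase genes, Saa3 was the 1 in the table, and the other members of its family, Saa1, Saa2 and Saa4, were not analysed here. Of 98 protease inhibitor genes, 2 are in the table, Spink1 and Serpina3g, a serpin known to inhibit cathepsins. Serpina3g was at 14.2, 2.03 and 5.47 in the WT libraries and at 66.5, 37.3 and 41.2 in the Pum2-/- libraries. The 2 listed inhibitors thus differed in direction, with 2.84 for Serpina3g against -1.83 for Spink1 on the log2(value + 1) scale. Of 32 alpha-defensins and Paneth cell products, Defa30 and Defa31 are in the table, both lower. A list of 58 antimicrobial defence genes took in the Defb genes of every tissue and enzymes such as Nos2 and Duox2. None of these 58 and none of 12 inducers and regulators of Saa3 is in the table. Since the table lists selected genes only, this leaves their levels not analysed here.

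The same holds for markers of the cells that could have supplied these transcripts. Of 7 Paneth cell markers 1 is in the table, Defa30 itself, and of 17 pancreatic acinar markers 1 is, Spink1 itself. None of 9 colonic epithelial, 9 macrophage and neutrophil or 6 adipocyte markers is listed. The tissue label could therefore not be checked against defining markers, and the part of small intestinal or pancreatic tissue, or of other cell types, in the values of Defa30, Spink1 and Saa3 was not tested.

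The transcripts were searched for the element that Pumilio proteins bind in RNA, TGTANATA in DNA letters, on the sense strand only. None of the annotated transcripts of Saa3, Defa30, Defa31 or Spink1 held a match. The motif occurred in 25.9% of the longest coding transcripts of 21901 genes, but in 3.25% of the 922 such transcripts with lengths from 398 to 729 bases, the range of the main transcript of each of the 3 genes. For transcripts of those lengths, an absence of the motif is thus the usual case. A further annotated Saa3 transcript of 2200 bases lies outside that range.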

How the data were processed

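Libraries were prepared by the authors from Trizol-extracted colon RNA of 3 WT and 3 Pum2-/- mice, with a SMARTER kit for mRNA. The authors deposited a table of selected genes with a normalized expression signal per library. The aligner, counter, build, normalization and read length are not given in the sources used here. The authors also deposited a log2 fold change and p-values, which hold their own comparison and were not used beyond describing the rows. Total depth is unknown, so no counting error was estimated. Vanishingly small numbers that stand for 0 in some cells were read as 0, and 2 rows with the same Ensembl identifier were counted once.

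Differences are those of group means of log2(value + 1), with standard errors. No overlap means that every value of a genotype lies beyond every value of the other. Members, lists and alternatives were chosen with earlier results of these data known, and no test was run. Named genes were the members, Pum2, listed genes of the 10 lists fixed for this work and the 3 closest genes of each member. Fpr1, Gzma, Ighv11-2 and Ighv1-33 were named after their values were seen. The replicate numbers of the labels do not establish pairs. Coordinates are from GENCODE M21 (GRCm38), matched by Ensembl identifier. Start windows are from RefSeq. The windows shown were matched by gene symbol, and the counts of genes with a window by Entrez identifier. Calculations used Python 3.11.15, numpy 2.4.6, pandas 2.3.3, edlib and matplotlib 3.10.9, and were tested on simulated data.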

Additional observations from a re-analysis of the deposited data

How the results depend on the processing

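The direction of all 3 genes and the absence of overlap held under every alternative that was run. For most alternatives this was fixed in advance. Groups that do not overlap stay apart and keep their direction under another pseudocount, a replicate block or the removal of a library. Division by the library median of the listed genes could have changed both, and did not. With pseudocounts of 0.1 and 10 the difference was 5.51 and 1.24 for Saa3 and -5.67 and -1.70 for Defa30, since both have values near 0, while Spink1 moved by less than its spread. Division by the library median of the listed genes, which are selected for their difference, gave -2.86 for Spink1 and shifted all genes by a median of -0.91. It left 52 genes without overlap, 19 higher and 33 lower, against 59, 30 higher and 29 lower. Among the genes with a mean of at least 10, 43 had no overlap. These are a smaller set whose size is not given here, so 43 cannot be set against 59. The 6 fits without a library ranged from 2.88 to 4.14 for Saa3, from -4.76 to -3.27 for Defa30 and from -2.18 to -1.56 for Spink1. They gave 60 to 62 genes without overlap, a count that the removal of a library could not bring below 59. Saa3 was highest without WT replicate 3, its only WT library clearly above 0. With the replicate number as a block the differences were by construction the same, at 3.30, -3.80 and -1.83, and 63 genes kept 1 sign in the 3 pairs. Deviations of same-numbered libraries correlated at 0.106, 0.0415 and 0.265 across listed genes, and 4 of 6 libraries correlated best with their own number. The sum of both defensins and the setting of values under 0.5 to 0 were chosen after seeing the data. Count tests were not run, since the table holds no counts.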
